A study of Pinus pinaster with 24 samples.

Results

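Of 47118 transcripts measured in root tips of the conifer Pinus pinaster (maritime pine), 11 met every criterion for a developing cortex rise with ammonium. Relative to water, these 11 rose less or not at all in the other tissues. Their mean log2 level under water was not higher in root cap than in cortex. They were chosen by measured values: all 3 cortex ammonium libraries lay above all 3 cortex water libraries, the cortex difference was at least 1, the difference was below 0.5 in root cap, meristem and developing vessels, and the root cap water mean did not exceed the cortex water mean on the log2(value + 1) scale. Every difference is ammonium minus water in mean log2(value + 1), a scale that understates the change of low transcripts. Because these values chose the members, the cortex difference is given as a description, with no test. The seedlings were 1 month old, came from the Segura-Alcaraz provenance, and had all been watered beforehand with a nutrient solution lacking nitrogen. The ammonium group then received 3 mM NH4Cl and the water group received water, and root tips were collected after 24 h. Developing cortex, developing vessels, meristem and root cap were cut out by laser microdissection, and their RNA was amplified from a low input, which gave 3 ammonium and 3 water libraries per tissue, numbered by experiments 1, 3 and 4. The labels call the 4 areas approximate. They give neither the number of seedlings behind a library nor whether the experiments used separate plants. A p-value here therefore reflects only library-to-library spread, part of which could be technical.

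Ammonium enters root cells through AMT membrane transporters and is built into glutamine and glutamate by glutamine synthetase and glutamate synthase. The cortex is the ground tissue between the root surface and the vascular cylinder, and ions cross it on their way to the vessels. The root cap covers the tip, its inner cells adjoin the meristem, and its outer cells face the soil and are shed. The table names transcripts by number alone, so no gene name, role or sequence is given for any member, and no named marker could be looked up for the labelled cortex.

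Depth was 67135340 to 88268689 recovered reads per library, and 72751959 to 79131608 in the 6 cortex libraries. In cortex a floor of 3 reads equalled a value of 0.0415 to 0.0493, and such floors cover counting error only, because amplified reads are not independent molecules. The members' cortex ammonium values rested on 85 to 3965 reads and their cortex water values on 0 to 506. Values are scaled reads with no correction for transcript length, so levels are compared between libraries of 1 transcript and not between transcripts.

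Each criterion narrowed the table. In 3000 transcripts (6.37% of the table) the 3 cortex ammonium values lay above the 3 water values, and 864 (1.83%) of these also had a difference of at least 1. The bound of 0.5 in the other tissues left 226. Of these, 215 had a higher water mean in root cap than in cortex and were removed, which left 11 (4.87% of the 226). Another 366 transcripts failed on the size of the cortex difference alone, 105 on the bound of 0.5 alone and 73 on the separation of the cortex libraries alone. Those shares follow from the criteria, and nothing is read from them.

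Some members lay close to a limit. The smallest cortex differences inside were 1.04 for pp_208417 and 1.07 for pp_119628, and the nearest outside were 0.88 for pp_96205 and 0.84 for pp_168887. The greatest difference in another tissue was 0.41, for pp_92114 in root cap and for pp_234203 in meristem. Just outside stood pp_100091, with 0.502 in meristem and 2.02 in cortex, and pp_148633, with 0.509 in root cap and 2.32 in cortex. For root cap minus cortex under water, the members closest to the limit were pp_234209 (-0.02) and pp_92114 (-0.07), with pp_235234 (0.02) and pp_164217 (0.16) just outside.

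In pp_108528 and pp_188383 a single ammonium library stood far above the rest. Transcript pp_108528 had cortex values of 3.01, 65.2 and 2.21 with ammonium (experiments 1, 3 and 4) and 0.244, 2.06 and 1.79 with water, a difference of 2.11, the greatest of the 11. Transcript pp_188383 had 5.86, 48.9 and 2.43 with ammonium and 2.25, 2.15 and 1.76 with water, a difference of 1.79. In both, ammonium 3 held most of the signal, while ammonium 4 lay barely above the highest water value.

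Transcripts pp_112281 and pp_112280 carry consecutive identifiers and moved together. In pp_112281 the cortex values were 3.70, 5.31 and 2.97 with ammonium and 0, 0 and 1.58 with water, the first 2 of these water libraries holding 0 reads, which allows up to 0.0430 and 0.0417. In pp_112280 they were 3.26, 5.34 and 3.31 with ammonium and 0.129, 0.278 and 1.09 with water. Means were 3.99 ± 1.198 with ammonium and 0.526 ± 0.911 with water for pp_112281, and 3.97 ± 1.19 with ammonium and 0.500 ± 0.519 with water for pp_112280 (SD, n = 3 each). The groups were well apart in both, and water 4 was the highest water library.

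Transcript pp_92114 had the widest gap between the lowest ammonium and the highest water library, 1.09 on the log2 scale. It held 4.62, 3.22 and 9.01 in cortex with ammonium and 0.903, 0.987 and 0.651 with water, a difference of 1.75. The water libraries lay within a narrow range, and ammonium 4, not 3, was the highest.

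For pp_234203 and pp_234209 the difference rested largely on 1 water library. Transcript pp_234203 had 7.07, 10.7 and 13.0 with ammonium and 0.100, 7.03 and 5.65 with water, so that ammonium 1 and water 3 almost touched (gap 0.01 on the log2 scale). Transcript pp_234209 had 5.21, 7.23 and 7.15 with ammonium and 0.0574, 3.91 and 3.49 with water. Water 1 rested on 7 and 4 reads, far below the other water libraries. In experiment 1 both were also low under water in root cap (0.346 and 0.487) and meristem (0.0976 and 0.112), where the other water libraries of these tissues held 0.487 to 6.00.

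The remaining members had cortex differences of 1.35 or less. Transcript pp_179676 had 2.49, 7.84 and 4.37 with ammonium and 0.875, 0.890 and 1.83 with water, a difference of 1.35. Transcript pp_99355 had 1.38, 7.103 and 2.73 with ammonium and 0.545, 1.03 and 0.498 with water, a difference of 1.31. In both of them ammonium 3 was highest, and the lowest ammonium library stayed above every water library.

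Transcripts pp_119628 and pp_208417 had the smallest differences. For pp_119628 the cortex values were 2.75, 5.89 and 2.14 with ammonium and 0.990, 1.36 and 0.858 with water. For pp_208417 they were 4.44, 1.53 and 1.58 with ammonium and 0.760, 0.612 and 0.429 with water. Ammonium 1 led in pp_208417 and ammonium 3 in pp_119628.

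**Figure D1:**
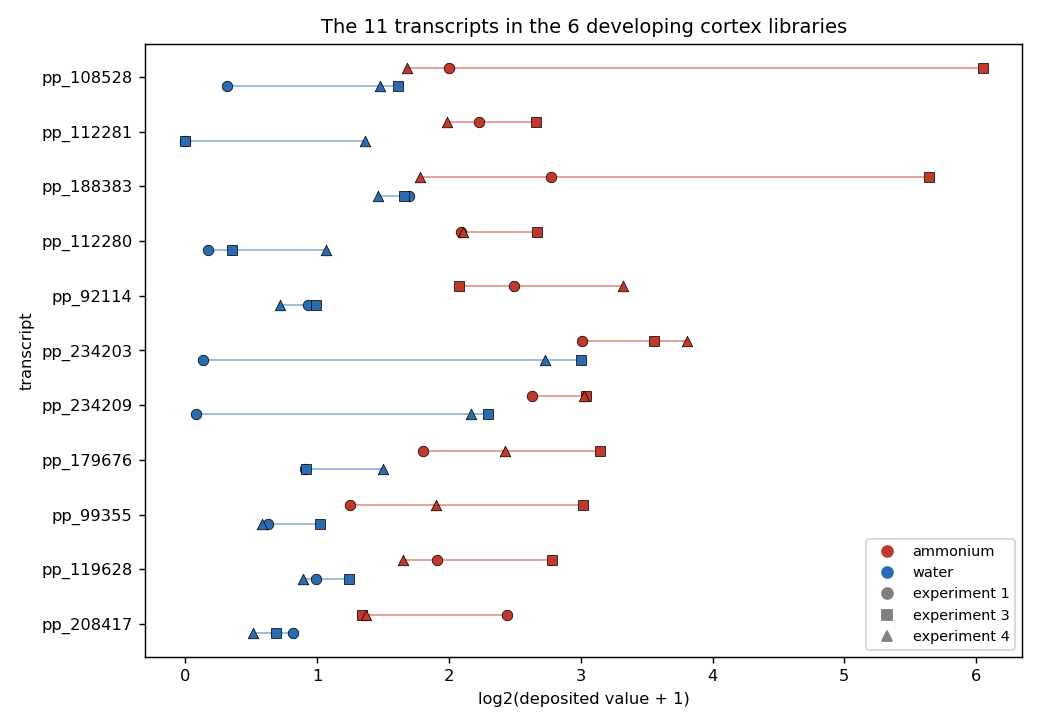
Values of the 11 transcripts in the 6 developing cortex libraries, as log2(deposited value + 1), with the 3 ammonium libraries above the 3 water libraries in each row and marker shapes for experiments 1, 3 and 4. The ammonium libraries lie to the right of the water libraries in every row, as the criteria require, and ammonium 3 stands far to the right in pp_108528 and pp_188383.

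Across the members, ammonium 3 was the highest cortex library in 8, ammonium 4 in 2 and ammonium 1 in 1. Over all transcripts, ammonium 3 was the highest of the 3 in 40.7%, ammonium 1 in 32.3% and ammonium 4 in 27.0%. The median difference of the 11 was 1.63 within experiment 1, 2.00 within experiment 3 and 0.86 within experiment 4. The same medians over all transcripts were 0.02, -0.06 and -0.03. These within-experiment values were also used in the choice.

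Leaving out 1 cortex library moved the difference of 6 members by more than 1.5 times. Without ammonium 3 it was 0.71 in place of 2.11 for pp_108528, 0.67 in place of 1.79 for pp_188383 and 0.83 in place of 1.31 for pp_99355. Without water 1 it was 0.59 in place of 1.499 for pp_234203 and 0.67 in place of 1.39 for pp_234209. Without ammonium 1 it was 0.68 in place of 1.04 for pp_208417. Transcript pp_119628 also fell below 1, to 0.74, without ammonium 3. The remaining 4 kept a difference of at least 1 whichever library was left out, with lowest values of 1.61 for pp_112281, 1.57 for pp_112280, 1.40 for pp_92114 and 1.01 for pp_179676. Over these 66 values every difference stayed above 0, which the separation of the libraries fixes. The root cap criterion was not part of these values. With all criteria applied again without cortex water 4, only 4 of the 11 members still met them. Among those lost were pp_112281, pp_112280 and pp_179676, whose cortex water mean then lay below their root cap water mean.

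**Figure D2:**
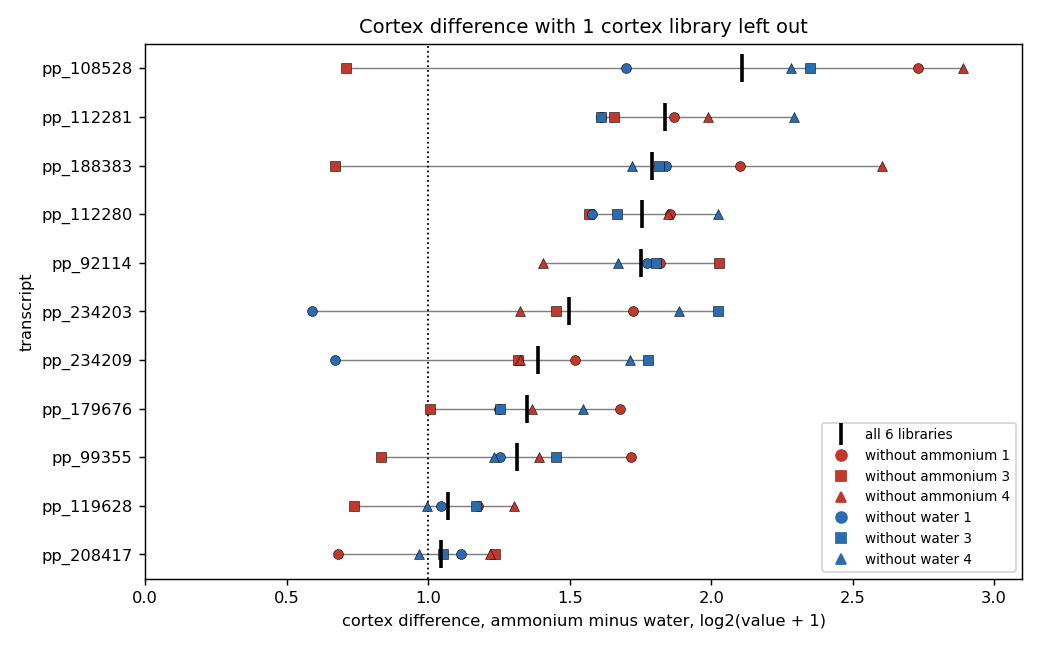
Cortex difference of each transcript (horizontal axis, ammonium minus water in mean log2(value + 1)) with all 6 cortex libraries (black bar) and with each left out in turn (coloured markers). The dotted line marks 1; in 7 transcripts at least 1 marker lies left of it, the lowest at 0.59 for pp_234203.

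The criteria were next applied to 2 experiments at a time, and the cortex difference was read in the experiment that took no part in the choice. With experiment 1 left out, 25 transcripts were chosen, and 13 of them (52.0%) were higher with ammonium in experiment 1, against 51.8% of all transcripts. With experiment 3 left out, 33 of 43 (76.7%) were higher in experiment 3, against 44.8% of all. With experiment 4 left out, 39 of 64 (60.9%) were higher in experiment 4, against 47.3% of all. The median difference of the chosen transcripts was 0.12 in experiment 1, 1.38 in experiment 3 and 0.20 in experiment 4, whereas in the experiments that chose them it was 1.32, 1.26 and 1.88. A difference of at least 1 was found in 20.0%, 67.4% and 18.8% of them, against 8.95%, 9.60% and 5.77% of all transcripts. Their lowest differences were -3.25, -2.73 and -0.79. The chosen transcripts were not matched to all transcripts in level or spread, so nothing is read from the upper shares alone. The shares higher with ammonium moved with the pseudocount and the scaling (closing section). Each difference in a left-out experiment is 1 ammonium library against 1 water library, so there is no test. Of the 11 members, 6, 3 and 7 were among the transcripts chosen without experiments 1, 3 and 4.

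**Figure D3:**
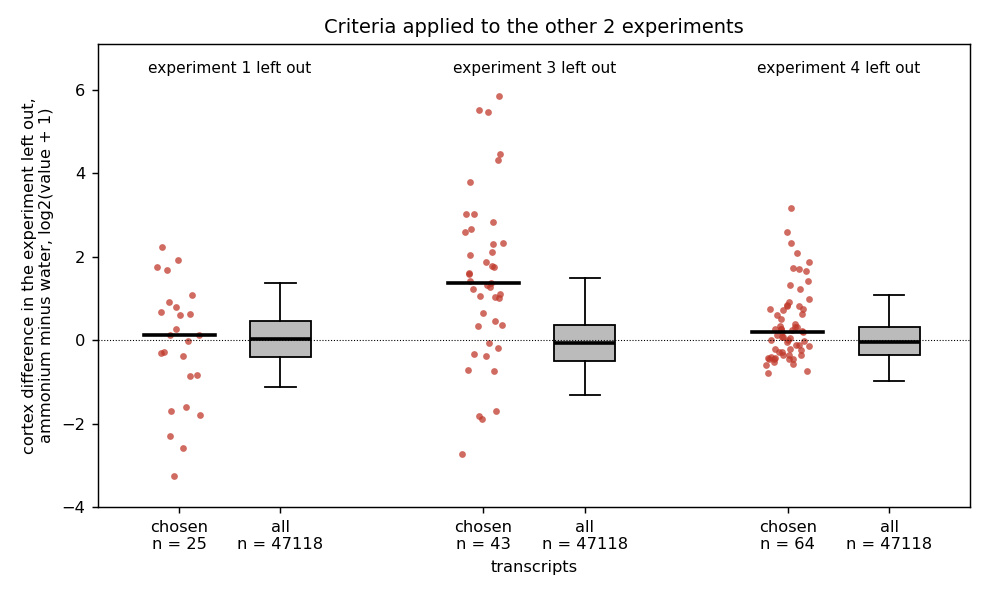
Cortex difference, ammonium minus water in log2(value + 1), in the experiment left out, for transcripts chosen on the other 2 experiments (red points, black bar at the median) and for all 47118 transcripts (grey box, quartiles, whiskers at the 5th and 95th percentiles). The chosen medians are 0.12, 1.38 and 0.20, and the points range from -3.25 to 5.86.

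With ammonium all 11 members had their highest mean in the cortex, and with water 9 did on the log2 scale. Against root cap the criteria fix this order on the log2 scale in both treatments. Against meristem and vessels they favour it with ammonium, so nothing is read from these counts. The exceptions under water were pp_112281 and pp_112280, whose vessel means exceeded their cortex means. On the plain scale pp_179676 was a further exception, with a water mean of 1.47 ± 2.29 in root cap and 1.197 ± 0.546 in cortex (SD, n = 3 each). Their vessel values were 0.673, 1.25 and 0.916 with ammonium and 0.256, 0.172 and 2.75 with water for pp_112281, and 0.788, 1.19 and 1.52 with ammonium and 0.330, 0.431 and 2.40 with water for pp_112280. Vessel water 4 was the highest of these libraries in both, as was cortex water 4 among the cortex water libraries. In bulk tissue, fewer cells of a type and less RNA per cell cannot be told apart.

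A few members were nearly absent outside the cortex. Transcript pp_99355 was at 0 reads in all 3 meristem water libraries and had at most 10 reads in any library outside the cortex. Transcript pp_119628 had at most 28 reads outside the cortex, in root cap water 1. Transcript pp_208417 was at 0 in all 3 root cap water libraries but reached 2.33 (163 reads) in vessel ammonium 1, where vessel ammonium 3 and 4 held 0.213 and 0.0206 and the vessel water libraries 0.366, 0.554 and 0.713.

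Other members had clear values in root cap. Transcript pp_234203 had 3.33, 1.48 and 3.80 with ammonium and 0.346, 3.15 and 6.00 with water, and pp_234209 had 2.57, 1.59 and 1.70 with ammonium and 0.487, 1.74 and 4.47 with water. Transcript pp_179676 reached 1.42 in root cap ammonium 4 and 4.11 in root cap water 4, above every cortex water library, against 0.0815 to 0.179 in the other root cap libraries. Transcript pp_92114 had 0.731, 0.910 and 2.83 in root cap with ammonium and 0.500, 1.35 and 0.523 with water, and pp_188383 had 0.861, 1.07 and 1.56 with ammonium and 0.487, 0.532 and 2.26 with water. The groups overlapped in each of these. Experiment 4 gave the highest root cap water value in 4 of these 5, all but pp_92114.

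In the meristem the values were low, apart from pp_234203 and pp_234209. These had 6.57 and 5.18 in meristem ammonium 3, against 0.557 and 0.582 in ammonium 1 and 0.152 and 0.178 in ammonium 4. Their meristem water 4 values were 2.57 and 2.09. In the vessels they stayed between 0.0366 and 0.300.

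The differences in the other tissues were bounded from above by the criteria. They ran from -0.38 to 0.41 in root cap (median 0.13), from -0.0027 to 0.41 in meristem (0.12) and from -0.12 to 0.30 in vessels (0.09), against medians of -0.01, 0.01 and -0.01 over all transcripts. They were above 0 in 8, 10 and 10 of the 11, against 48.5%, 51.5% and 48.0% of all transcripts. These counts are a description, because the criteria used the same values and some members moved together. Nothing is read from them. In root cap 2 members, pp_99355 and pp_208417, had all ammonium values above all water values (6.02% of all transcripts) and 0 had them below (6.64%). In vessels pp_234203 and pp_119628 had them above (4.44%) and 0 below (4.24%), and in meristem 0 lay apart in either direction (4.38% above and 6.01% below). The ammonium libraries concerned held 2 to 23 reads, so these separations rest on few reads.

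**Figure D4:**
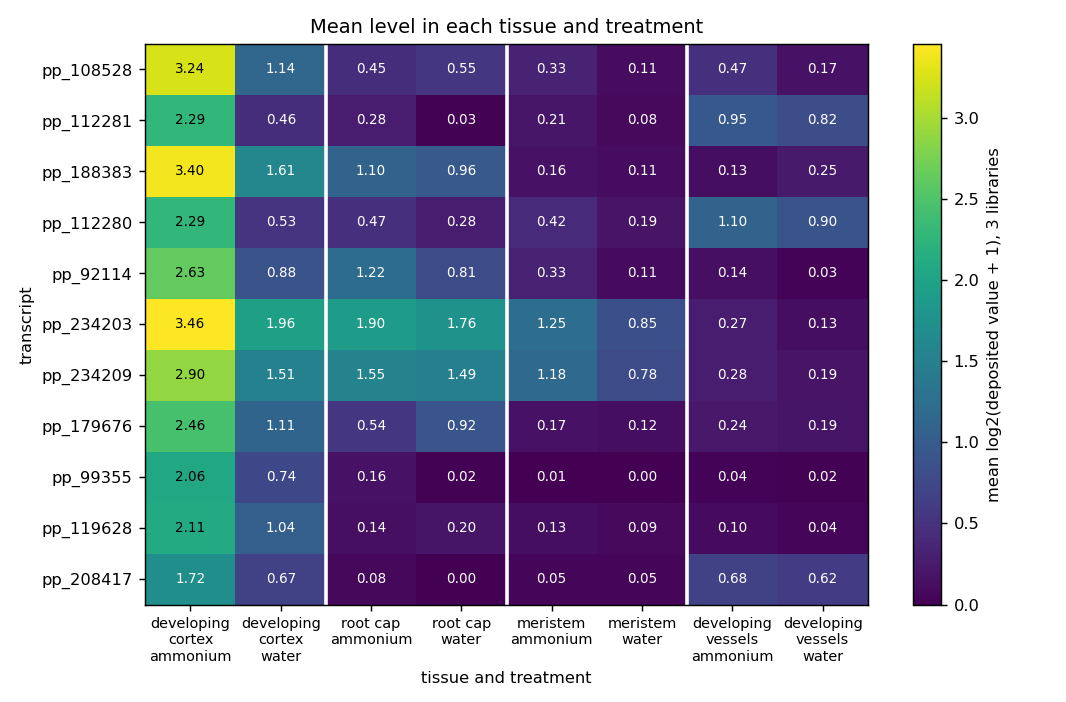
Mean of log2(deposited value + 1) over 3 libraries for the 11 transcripts (rows) in each tissue and treatment (columns), to be compared along a row. The cortex ammonium column is the highest in every row, from 1.72 for pp_208417 to 3.46 for pp_234203. The criteria fix this order against root cap and favour it against the other tissues. Transcripts pp_99355 and pp_119628 are near 0 outside the cortex.

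The contrast of vessels and meristem under water was not among the criteria and could be tested, although its libraries enter the bound of 0.5. Transcripts entered the test when they reached a value of 1 or more in 3 or more libraries. All 11 members passed this filter, but 7 of them passed only through the cortex libraries in which they were chosen to be high. For that reason, and because of the bound, the counts below are a description and nothing is read from them about the 11. In limma 0 of the 11 were called in either direction, with 1 at an unadjusted p under 0.05, against 13.4% of 46960 transcripts called higher and 6.42% called lower in vessels. The difference nearest to the threshold was that of pp_112280, 0.71 (SE 0.30, limma adjusted p = 0.102), followed by pp_112281 with 0.74 (SE 0.38, adjusted p = 0.174) and pp_208417 with 0.57 (SE 0.33, adjusted p = 0.221). For pp_208417 the vessel water values 0.366, 0.554 and 0.713 lay above the meristem water values 0, 0.108 and 0. For pp_112280 the vessel water values 0.330, 0.431 and 2.40 lay above 0.195, 0.108 and 0.115 in meristem. On the other side, pp_234203 had a difference of -0.72 (SE 0.73, adjusted p = 0.506) and pp_234209 one of -0.60 (SE 0.59, adjusted p = 0.497). The other 6 differences lay between -0.07 and 0.14. Single libraries moved these values, by about 1.5 times or more in the cases given here. Without vessel water 4 the difference was 0.28 for pp_112280 and 0.19 for pp_112281, and without meristem water 4 it was -0.23 for pp_234203 and -0.18 for pp_234209. Without meristem water 1 it was -1.08 for pp_234203 and -0.91 for pp_234209.

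Other tests of the same contrast, under the same limits, made a few calls. On recovered reads, edgeR's quasi-likelihood test called pp_112280 (log2 fold change 2.91, adjusted p = 0.0331, over alternatives 0.00440 to 0.521). DESeq2 called 3, higher in vessels for pp_112280 (adjusted p = 0.00440) and pp_208417 (0.0289, over alternatives 0.0114 to 0.419) and lower for pp_234203 (0.0221, over alternatives 0.0221 to 0.887). A limma fit of the 6 libraries alone called pp_208417 (adjusted p = 0.0114), as did a pseudocount of 0.1 (0.0431). Of the transcripts tested, edgeR called 9.33% higher and 4.56% lower in vessels, and DESeq2 13.9% and 11.5%. The 6 libraries alone gave 18.0% and 14.9%, and the pseudocount of 0.1 gave 12.6% and 5.24%. Outside the cortex pp_208417 reached a value of 1 only in vessel ammonium 1 (2.33), so it passed the filter through its cortex ammonium libraries. With a filter asking for 6 libraries pp_208417 was not tested.

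The members did not form 1 pattern over the 24 libraries. Over the 55 pairs the median correlation of log2 values was 0.68, from 0.29 to 0.99, and all pairs share the high cortex ammonium libraries that the criteria asked for. After group means were removed, the median was 0.16, from -0.43 to 0.97, with 18 pairs below 0. The closest pairs were pp_234203 with pp_234209 (0.97 within groups) and pp_112281 with pp_112280 (0.95), each with near identifiers. Next came pp_108528 with pp_99355 (0.87), pp_119628 (0.87) and pp_188383 (0.84), which share a high cortex ammonium 3. Correlations over libraries are descriptions.

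Some transcripts with near identifiers shared part of a member's pattern, and others did not. The table holds 83 transcripts other than members within 10 identifier numbers of a member, and 14 of them (16.9%) had a cortex difference of at least 1, against 4.06% of all transcripts. A difference of -1 or lower was found in 2 (2.41%), against 1.95% of all. Neighbours may share a gene with a member, so they are not independent of the choice. Near pp_188383, the 4 transcripts pp_188377, pp_188378, pp_188380 and pp_188381 correlated with it at 0.99 to 1.00. They had cortex differences of 1.57 to 1.60, but their cortex libraries overlapped. The transcript before pp_99355, pp_99354, had a difference of 1.22 and a correlation of 0.99, again with overlapping libraries.

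Other neighbours met the cortex criteria but exceeded the bound of 0.5 in another tissue. At 9 and 10 numbers from pp_92114, pp_92123 and pp_92124 had cortex differences of 1.86 and 1.82, with root cap differences of 1.17 and 1.54. The transcripts adjoining pp_92114, pp_92113 and pp_92115, had cortex differences of 0.05 and -0.02. At 6 numbers from pp_179676, pp_179670 averaged 273 with ammonium and 58.7 with water in cortex. At 5 numbers from it, pp_179671 averaged 236 with ammonium and 49.2 with water. Their cortex differences of 1.81 and 1.85 stood beside meristem differences of 0.98 and 0.85. Others went the opposite way or followed another pattern. Next to pp_234209, pp_234208 averaged 3.12 with ammonium and 11.5 with water in cortex, a difference of -1.52, and pp_234207 had a difference of -1.40. Near pp_112281, pp_112278 had a cortex difference of 1.57 but a correlation of -0.20 over the libraries. The files do not say whether neighbouring numbers belong to 1 gene, so the 11 identifiers, in 10 runs of consecutive numbers, are not a count of genes.

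Transcripts chosen for a high level in root cap also had clear values in the cortex libraries. No cortex library entered that choice, so it does not separate root cap transcripts from those of both root cap and cortex. A list of 200 transcripts that stood highest in root cap against meristem and vessels under water, made with no cortex library, averaged 6.55, 6.18 and 4.79 on the log2 scale in cortex ammonium 1, 3 and 4 and 4.29, 4.86 and 3.47 in cortex water 1, 3 and 4. Ammonium 4 lay just below water 3, so the groups overlapped, and within each experiment the ammonium library was the higher. The mean of the list in root cap water libraries was 7.11. The like vessel list averaged 1.00, 1.04 and 0.67 with ammonium and 1.40, 2.16 and 2.37 with water, and the meristem list 2.26, 0.70 and 1.67 with ammonium and 1.48, 1.70 and 2.24 with water. In the water libraries of their own tissues the vessel list averaged 6.25 and the meristem list 4.00. At 0 reads in a cortex library were up to 2 of the 200 root cap transcripts, 4 to 35 of the meristem list and 0 to 29 of the vessel list. The mean of the 11 members was 2.24, 3.27 and 2.28 with ammonium and 0.61, 1.25 and 1.32 with water, highest in ammonium 3, whereas the root cap list was highest in ammonium 1. The part of other tissues in the members' values was not tested.

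**Figure D5:**
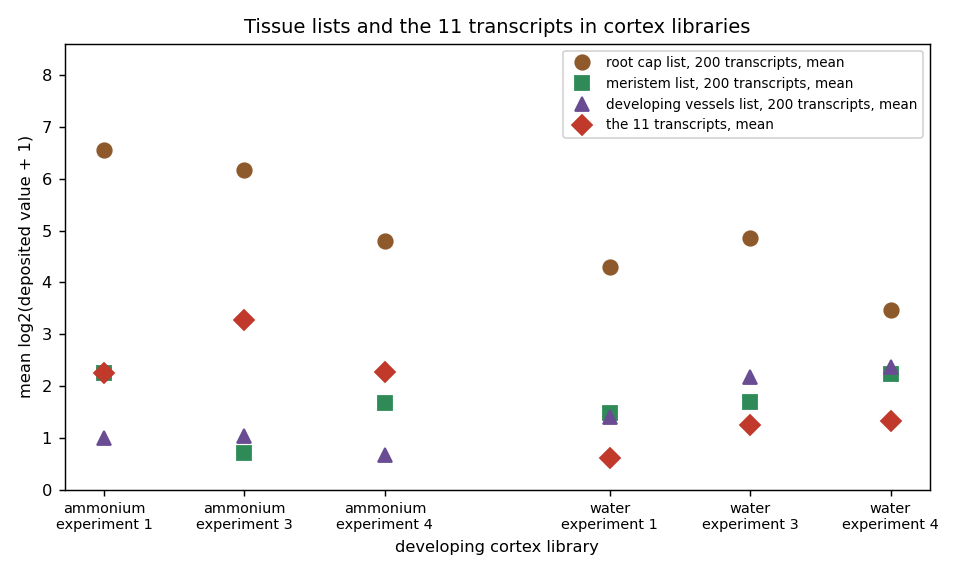
Mean log2(deposited value + 1) in each developing cortex library of the 11 transcripts (diamonds) and of lists of 200 transcripts. Each list stood highest in root cap, meristem or developing vessels when these tissues were compared under water, without cortex. The root cap list lies between 4.79 and 6.55 with ammonium and between 3.47 and 4.86 with water.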

How the data were processed

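The authors deposited 1 table of signal values, which behave as read numbers over a library-specific scale. Column totals ran from 793680 to 1210367. The submitters' processing notes name bcl2fastq and BWA. The counting program, the reference transcripts and the scaling were not given in the sources used here. All values (100%) were whole multiples of 1 read within 0.01 reads, and reads were recovered for edgeR 4.0.16 and DESeq2 1.42.0. The main test was limma 3.58.1 (R 4.3.3) on log2(value + 1) in a model of 8 groups over 24 libraries, with Benjamini-Hochberg adjustment over 46960 transcripts and a threshold of 0.05. The procedure was tested on simulated reads, with changes placed only in transcripts whose mean exceeded that of every member (3.32 at most). That run does not cover changes at the members' levels. Plots used matplotlib 3.10.9.

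Vessel and meristem water libraries of the same experiment number deviated together (r = 0.644, 0.499 and 0.252 for experiments 1, 3 and 4, each over 0.1), so the numbers were taken to pair them. The pairing comes from the labels' experiment numbers. The main limma test had no term for it, so its SEs and adjusted p-values ignore the pairing. The replicate block in the closing section used it, and there 17.4% of transcripts were called higher and 10.5% lower in vessels. Libraries of a group correlated at 0.824 to 0.963, with the lowest values in meristem ammonium (0.824 to 0.835). The cortex ammonium libraries correlated at 0.846 to 0.957 and the cortex water libraries at 0.934 to 0.959.

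The members, lists and tests were chosen with earlier results of these data known. All 11 members are named; the rule for named transcripts also took the nearest on either side of each limit, and neighbours by identifier were named after their values were seen. Alternatives are given in the closing section.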

Additional observations from a re-analysis of the deposited data

How the results depend on the processing

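The number of transcripts meeting the criteria depended on the settings. It was 4 with a pseudocount of 0.1 (3 of the 11 members kept) and 16 with a pseudocount of 4 (2 kept). Column-sum scaling gave 8 (7 kept), median-of-ratios scaling 11 (10 kept) and the filter on low values 11 (all kept). Without 1 cortex library it ran from 10 (without water 4, 4 kept) to 83 (without ammonium 4, 11 kept). Without experiments 1, 3 and 4 it was 25, 43 and 64, and fewer libraries ease the separation. Leaving out meristem ammonium 3 and 4, an alternative chosen after seeing the data, gave 21 (11 kept). The median cortex difference was 2.32 with a pseudocount of 0.1 and 0.82 with 4, by the construction of the scale. With a pseudocount of 0.1 the share higher with ammonium in the left-out experiment fell in each case. It was 45% in experiment 1 and 43.5% in experiment 3, and in experiment 4 as many were higher as were not. Column-sum scaling gave 49.1% in experiment 4, but 66.7% in experiment 1 and little change in experiment 3. The cause was not tested. Of the 11, limma called 0 between vessels and meristem under water, 1 with a pseudocount of 0.1, 1 in the 6 libraries alone, 1 in edgeR and 3 in DESeq2. The replicate block called 0, with lowest adjusted p = 0.0649, and each fit without a library called 0. The fits without a library called 7.64% to 12.2% of the transcripts tested higher and 1.98% to 4.02% lower. The shares for the other fits are given above. Of 110 single cortex differences under the alternatives, 14 moved by at least the member's pooled SD within the cortex groups. All 110 were above 0 (0.47 to 3.96), a sign that the separation of the libraries fixes for the pseudocounts and for each library left out. Groups of 3 libraries and few reads outside cortex limit these values.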
